A study of Homo sapiens with 24 samples.

Results

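The washout course of LUHMES aggregates exposed to 50 nM rotenone was followed by comparing the 6 arrays collected on day 15 of differentiation with the 6 arrays collected on day 8. These 12 arrays, of 24 in the series, were chosen by their titles, and exposure time (12 or 24 h) and slide entered the comparison as factors. LUHMES is a human mesencephalic cell line, immortalized by a conditional transgene, that stops dividing under tetracycline and differentiates into dopaminergic-like neurons. The aggregates were grown in 3D on a gyratory shaker at 80 rpm in medium with cAMP, GDNF, tetracycline and N2, and all groups shared this medium and the same line. Rotenone was added on day 7, and 3 wells per group were harvested either right after 12 or 24 h of exposure (labelled day 8) or after removal of the compound and 7 further days of culture (day 15). The DMSO wells, 3 for each day, received the vehicle in the amount that accompanied 100 nM rotenone. Replicates were wells, so that p-values measured the spread between wells only. Day 15 aggregates were older as well as washed out, and age and washout cannot be told apart within the 50 nM arrays. The DMSO arrays carried an age difference without rotenone, and their change is given beside the main genes and lists. The labels give no exposure time for DMSO, so its day 8 arrays could not be matched in harvest time to both exposures. Rotenone and harvest time thus cannot be fully told apart in comparisons with DMSO on day 8.

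Rotenone blocks complex I of the mitochondrial respiratory chain, and dopaminergic neurons are known for their sensitivity to it. Neurons in culture that leave the cell cycle lower the transcripts of replication and of early neurogenic transcription factors, and gradually raise those of ion channels, transmitter receptors and synaptic proteins. Cells whose respiration is blocked rely on glycolysis and can activate the integrated stress response, in which the transcription factor ATF4 raises genes of amino acid synthesis and transport.

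RNA was measured on single-color arrays, on which 21344 genes were tested. Between 51.6% and 82.4% of the spots of the 12 arrays of 50 nM rotenone were well above background and no spot was saturated. Precision is limited by the number of arrays. All values below are normalized signals on the log2 scale, and all adjusted p-values come from limma with Benjamini-Hochberg adjustment over all genes. A gene was called at an adjusted p under 0.05 and a fold change over 1.5. The 10 neuronal markers were well above background on all 12 arrays of 50 nM rotenone. Of the 10 markers of dopaminergic neurons, 7 were above background on all 6 arrays of a day, while SLC18A2, the vesicular monoamine transporter, was above it on 1 array of each day. The 7 markers of astrocytes were dim on average, with mean levels of 4.04 to 4.63 per array on day 8 and 4.08 to 4.68 on day 15. Those of microglia lay at 4.22 to 4.48 and 3.63 to 4.45. Even so, 2 of 7 astrocyte and 1 of 6 tested microglial markers were above background on all 6 arrays of a day. The same held for 4 of 8 mesenchymal markers (mean levels of 4.24 to 5.12 and 4.23 to 4.89) and 4 of 7 tested oligodendrocyte lineage markers. The array of day 15, 24 h, replicate 1 stood apart, as it was the lowest of the 6 arrays for 21 of 27 genes of skeletal muscle, against 19.5% of all genes, and muscle results are given with and without it.

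After removal of rotenone and 7 days of recovery, 3430 genes had changed from their day 8 level, which is 16.1% of those tested. Of these, 1598 were higher (7.49% of genes) and 1832 lower (8.58%) on day 15. The median over all genes was -0.02. On day 15, 86 genes were more than 2 log2 units higher and 93 were more than 2 lower. The 6 arrays of day 15 lay all above those of day 8 for 1594 genes (7.47%) and all below for 1985 (9.3%). For 1421 of the 1598 called higher, all 6 pairs of arrays that shared a slide and an exposure time rose, and for 1714 of the 1832 called lower all 6 pairs fell. The split depended on scaling. When the processed signal of the scanner was used, with arrays scaled by their 75th percentile, 3793 of 5512 called genes were higher and the median of all genes was 0.20, and with the same scaling of the median signal 2664 of 4137 were higher with a median of 0.14.

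The largest fall was that of IFITM1, an interferon-induced membrane protein that restricts viral entry. Its signal ranged from 10.71 to 12.31 (median 11.08) over the 6 day 8 arrays and from 5.22 to 5.81 (median 5.66) on day 15, a change of -5.74 ± 0.28 (SE, n = 6 per day, adjusted p = 6.45e-11). No array of one day reached the other, and the DMSO wells fell from 11.59, 10.11 and 10.37 to 5.15, 5.63 and 5.51. The related IFITM4P transcript fell by 4.17, but IFITM family members are so alike that their probes may share signal. ECEL1, an endopeptidase of neurons, ranged from 11.59 to 12.32 (median 11.99) on day 8 and from 7.28 to 7.84 (median 7.51) on day 15, a change of -4.44 ± 0.13 (adjusted p = 2.69e-13). OLIG1, a basic helix-loop-helix factor of the oligodendrocyte and motor neuron lineages, ranged from 12.17 to 12.71 on day 8 and from 7.76 to 8.33 on day 15, a change of -4.32 ± 0.13 (adjusted p = 4.28e-13). For both, all 6 arrays of day 15 lay far below the lowest array of day 8. In DMSO, ECEL1 changed by -3.36 ± 0.19 and OLIG1 by -5.16 ± 0.19 (n = 3 per day).

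Other genes completed the 10 largest falls among those with no overlap between days. They were NTSR1, the neurotensin receptor (-4.71 ± 0.21), MFAP4, a microfibril protein of the extracellular matrix (-4.49 ± 0.36), the keratins KRT33B (-4.30 ± 0.19) and KRT19 (-4.24 ± 0.24), the serine protease PRSS56 (-4.03 ± 0.14) and WFIKKN1, a secreted inhibitor of growth factors of the GDF8 and GDF11 type (-3.81 ± 0.08). NTSR1 was well above background on only 3 of the 6 day 15 arrays. MFAP4 varied among the day 15 wells, from 5.49 on the array that stood apart to 8.12. In DMSO the changes were -4.05 for NTSR1, -4.09 for MFAP4, -5.21 for KRT33B, -5.11 for KRT19, -2.34 for PRSS56 and -3.56 for WFIKKN1, with NTSR1 and KRT33B well above background on 2 of the 3 day 15 DMSO arrays.

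The largest rise was that of PTPRR, a receptor-type tyrosine phosphatase that acts on MAP kinases. Its signal ranged from 4.65 to 5.26 (median 4.85) on day 8 and from 9.01 to 9.74 (median 9.36) on day 15, a change of 4.5 ± 0.10 (SE, n = 6 per day, adjusted p = 1.23e-14) or 22.7-fold. SCGN, the calcium-binding protein secretagogin, rose from 7.93 to 8.18 (median 8.10) to 12.31 to 12.80 (median 12.50), a change of 4.45 ± 0.10 (adjusted p = 6.15e-15). CBLN2, a secreted organizer of synapses, rose by 3.73 ± 0.07 from 8.35 to 8.81 (median 8.49) to 12.05 to 12.43 (median 12.30). All 3 were well above background on every array of both days, and no array of one day reached the other. In DMSO, PTPRR rose by 4.17 ± 0.15, SCGN by 3.97 ± 0.14 and CBLN2 by 3.32 ± 0.10.

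Of the other largest rises, BRINP3 (3.53 ± 0.12), TMEM117 (3.48 ± 0.11) and TMOD1, which caps actin filaments (3.48 ± 0.12), had similar standard errors. GRM3, a metabotropic glutamate receptor (3.47 ± 0.23), was above background on 3 of the 6 day 8 arrays. CD86, a costimulatory ligand of immune cells, rose by 3.54 ± 0.54 (adjusted p = 5.36e-05) but ranged from 4.46 to 7.70 on day 8 and from 7.97 to 12.07 on day 15, and its change was 4.76 on slide 1, 3.02 on slide 2 and 2.85 on slide 3. Slide 1 held the 2 brightest day 15 arrays of CD86. In DMSO the rises were 2.65 for BRINP3, 3.18 for TMEM117, 3.09 for TMOD1, 2.77 for GRM3 and 3.06 for CD86. MYH8 and MYF6, genes of skeletal muscle, complete these rises and are described with the other muscle genes.

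**Figure D1:**
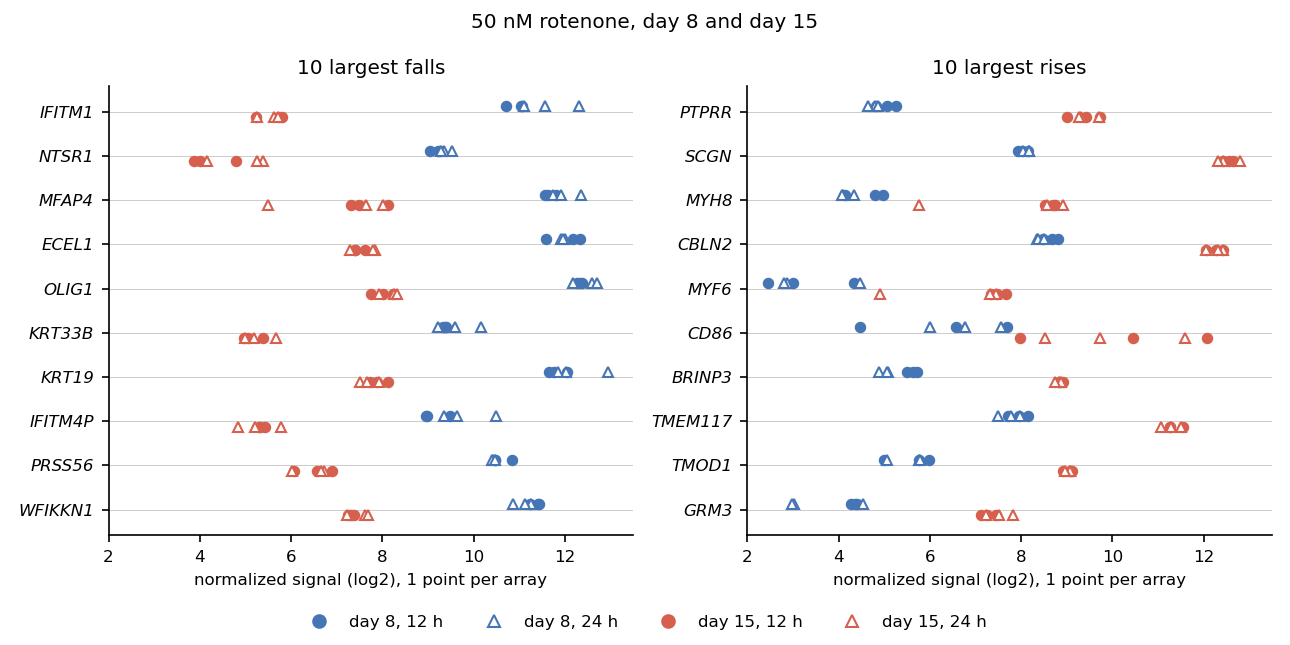
Normalized log2 signal (horizontal axis) of the 10 genes with the largest fall (left) and the 10 with the largest rise (right), 1 point for each of the 12 arrays of 50 nM rotenone. Blue is day 8 and red day 15, filled circles mark 12 h and open triangles 24 h of exposure. The days do not overlap for any of the 20 genes, and single low points of MFAP4, MYF6 and MYH8 on day 15 come from 1 array.

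Transcripts of dividing cells fell. Of 32 listed genes of cell cycle and DNA replication, 31 were tested, 20 were lower on day 15 and none was higher (background 8.58% lower), with a median of -0.96 against -0.02 for all genes. The other 11 did not pass the test. CCNB2, the mitotic cyclin B2, ranged from 6.39 to 7.94 (median 7.01) on day 8 and from 3.90 to 5.12 (median 4.56) on day 15, where it was well above background on 4 arrays, a change of -2.49 ± 0.33 (adjusted p = 1.23e-05). TOP2A, the topoisomerase of dividing cells, ranged from 4.75 to 7.25 (median 5.81) on day 8 and was well above background on none of the day 15 arrays, which makes it at least 5.0-fold lower (adjusted p = 1.45e-05). TOP2B, its counterpart in postmitotic cells, had a median of 12.32 on day 8 and 12.38 on day 15, and its change of 0.03 ± 0.04 did not pass the test (adjusted p = 0.579). In DMSO, 20 of the 31 genes were likewise lower and none was higher, with CCNB2 at -2.14 ± 0.47, and TOP2A was called lower while well above background on none of the day 15 DMSO arrays.

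The promoters of these 2 cell cycle genes are shown because many members of this list share letters within them. The sequences are the 250 bases before the annotated start in RefSeq (GRCh38.p14), chr15:59104896-59105145 on the plus strand and chr17:40417897-40418146 on the minus strand, both 5' to 3' along the gene, with CCAAT and TTTGAA on either strand in capitals.
CCNB2: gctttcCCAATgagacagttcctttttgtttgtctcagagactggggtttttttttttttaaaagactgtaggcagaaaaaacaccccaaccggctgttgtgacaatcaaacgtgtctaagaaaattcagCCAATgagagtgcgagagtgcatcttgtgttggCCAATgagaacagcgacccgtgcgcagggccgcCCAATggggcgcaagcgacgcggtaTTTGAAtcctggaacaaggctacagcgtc
TOP2A: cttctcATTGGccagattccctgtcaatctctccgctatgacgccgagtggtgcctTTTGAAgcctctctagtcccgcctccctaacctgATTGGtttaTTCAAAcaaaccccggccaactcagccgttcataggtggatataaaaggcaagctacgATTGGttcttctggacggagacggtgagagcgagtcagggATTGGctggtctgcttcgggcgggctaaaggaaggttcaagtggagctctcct
Both windows hold 4 copies of CCAAT, and TTTGAA stands once in that of CCNB2 and in 2 places in that of TOP2A. These motifs are known from the promoters of genes of the G2 and M phases. Of the 20 cell cycle genes that fell, 16 had a promoter in the table, of which 13 (81.2%) held CCAAT and 7 (43.8%) held TTTGAA. Over the whole tested list, fallen or not, 20 of 24 promoters (83.3%) held CCAAT and 7 (29.2%) held TTTGAA. The share with CCAAT thus belongs to the list and is not particular to the genes that fell. Among all 16205 tested genes with a promoter of this length, 34.2% held CCAAT and 10.9% TTTGAA.

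Of the early neurogenic transcription factors, more were called lower than higher. Of 21 tested genes of this list, 8 were lower (38.1%, beside 8.58% of all genes) and 2 higher (9.52%, beside 7.49%) on day 15. The other 11 did not pass the test, and the list's median was -0.00317 in 50 nM rotenone and -0.34 in DMSO. NEUROD4 ranged from 9.29 to 10.19 (median 9.86) on day 8 and from 5.74 to 6.73 (median 6.23) on day 15, a change of -3.58 ± 0.15 (adjusted p = 9.59e-12), with -3.54 ± 0.21 in DMSO. NEUROD2 fell by 3.32 ± 0.17 and was well above background on 3 of the 6 day 15 arrays. NEUROD1, NEUROG1, ST18, INSM1, SCRT1 and the Notch ligand DLL3 fell by 0.67 to 2.50. MYT1L, which represses non-neuronal genes, and DLL1 both rose by 0.82. The DMSO wells showed 8 falls and 2 rises in this list.

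Of 19 tested progenitor genes, 5 fell (26.3%, beside 8.58% of all genes) and 1 was called higher (5.26%, beside 7.49%), as many as in DMSO. LIN28B, an inhibitor of let-7 maturation, fell from a median of 13.03 to 11.86 (-1.13 ± 0.08), and NOTCH1 fell from 6.29 to 5.41 (-1.13 ± 0.14). HES1 was called higher at an adjusted p of 0.031, but it was well above background on 1 of the 12 arrays, and no fold is given. The oligodendrocyte lineage list held 3 falls among 7 tested members (42.9%, beside 8.58% of all genes) and no rise. The falls were those of OLIG1, OLIG2 (-3.40) and PDGFRA (-0.76), and the list's median of -0.28 turned to 0.29 with the processed signal.

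Genes of the dopaminergic neuron moved in both directions. Of 21 tested, 5 rose (23.8%, beside 7.49% of all genes) and 2 fell (9.52%, beside 8.58%), with a median of 0.20. TH, tyrosine hydroxylase, the rate-limiting enzyme of dopamine synthesis, ranged from 9.37 to 10.34 (median 9.94) on day 8 and from 6.39 to 7.44 (median 7.01) on day 15, a change of -2.89 ± 0.17 (adjusted p = 9.2e-10) or 7.40-fold lower. SLC6A3, the dopamine transporter, fell by 2.46 ± 0.20 from 8.16 to 9.41 (median 8.49) to 5.95 to 6.27 (median 6.12). No day 15 array reached the day 8 arrays in either gene. The DMSO wells showed the same 2 falls, with TH at -2.94 ± 0.24 and SLC6A3 at -2.05 ± 0.28. In bulk RNA, fewer cells of a type and less RNA per cell cannot be told apart.

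The rises in this list included those of MAOA, the monoamine oxidase A that degrades dopamine (2.26 ± 0.09, from a median of 5.42 to 7.65), NR4A2, an orphan nuclear receptor of midbrain dopaminergic neurons (1.60 ± 0.11, from 5.96 to 7.55), RET, the receptor tyrosine kinase for GDNF (1.40), and LMX1B, a homeobox factor (0.69). These 4 rose in DMSO as well, by 1.83, 1.55, 1.22 and 0.75. In DMSO, 8 members of the list were called higher, and with the processed signal 9 were higher in 50 nM rotenone.

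Genes of excitability and synapses that passed the test mostly rose. The counts of higher and lower genes were 6 and 2 of 23 tested sodium and calcium channels, 6 and 2 of 29 potassium channels, 6 and 2 of 30 receptors for glutamate, GABA, glycine and acetylcholine, and 6 and 0 of 27 genes of the synaptic vesicle, against 7.49% higher and 8.58% lower among all genes. Their medians were 0.36, 0.20, 0.07 and 0.48. With the processed signal, whose median over all genes was 0.20, the genes called higher were 10, 14, 12 and 7 and the medians 0.49, 0.63, 0.60 and 0.44. In DMSO the counts were 7 and 2, 5 and 1, 6 and 2, and 7 and 1.

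CACNA1G, a T-type calcium channel, rose from 5.14 to 5.32 (median 5.25) to 7.52 to 7.64 (median 7.60), a change of 2.36 ± 0.09 (SE, n = 6 per day, adjusted p = 3.39e-12). The R-type channel CACNA1E rose by 2.01 ± 0.12, whereas the T-type channel CACNA1H fell by 1.19 ± 0.09 and the P/Q-type channel CACNA1A by 0.76 ± 0.08. Among potassium channels, KCND2, a channel of the A-type current, rose by 1.84 ± 0.09 (median 6.81 to 8.83), and KCNH2, of the rapid delayed rectifier current, fell by 0.71 ± 0.08 (8.47 to 7.72).

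Of the receptors, GRIK1, a kainate receptor subunit, ranged from 5.03 to 5.84 (median 5.66) on day 8 and from 8.53 to 8.75 (median 8.68) on day 15, a change of 3.14 ± 0.13 (adjusted p = 1.52e-11) or 8.81-fold. The nicotinic subunits CHRNA3 and CHRNB4 fell by 1.0 ± 0.14 and 0.86 ± 0.17. SYN2, which tethers synaptic vesicles, rose by 1.65 ± 0.09 (median 6.87 to 8.46). All of the genes named for channels, receptors and synapses had the same sign in the DMSO wells.

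Genes of the neuronal cytoskeleton and of axon guidance were also higher more often than lower. Of 22 cytoskeletal genes, 6 rose (27.3%, beside 7.49% of all genes) and 1 fell (4.55%, beside 8.58%). Peripherin (PRPH, 0.98 ± 0.08) and tau (MAPT, 0.81 ± 0.07) rose most, and the heavy neurofilament NEFH fell by 0.81 ± 0.06. In DMSO 2 rose and 1 fell in this list, and with the processed signal 3 rose and 1 fell in 50 nM rotenone. Of 32 guidance genes, 8 rose (25%) and 3 fell (9.38%), against 7 and 3 in DMSO, and 13 rose with the processed signal. EPHA4, an ephrin receptor, rose by 2.76 ± 0.12 from 7.41 to 8.04 (median 7.83) to 10.22 to 10.86 (median 10.53), with 3.05 ± 0.17 in DMSO, and the semaphorin receptor PLXNA4 rose by 1.41 ± 0.08. The adhesion protein CNTN2 fell by 1.58 ± 0.09 and the netrin receptor DCC by 1.12 ± 0.10.

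Of 26 tested neuropeptide and granule genes, 7 rose (26.9%, beside 7.49% of all genes) and 6 fell (23.1%, beside 8.58%), against 6 and 5 in DMSO. GAL, the galanin precursor, ranged from 11.15 to 11.92 (median 11.60) on day 8 and from 8.07 to 8.61 (median 8.39) on day 15, a change of -3.23 ± 0.12 (adjusted p = 4.62e-12), with -2.81 ± 0.17 in DMSO. NPPC, the precursor of C-type natriuretic peptide, fell by 1.28 ± 0.17. The prohormone convertases PCSK2 (2.64 ± 0.25) and PCSK1 (2.31 ± 0.14) rose most, and CCK, the cholecystokinin precursor, rose by 1.91 ± 0.19, though PCSK2 and CCK were each above background on only 2 of the 6 day 8 arrays. PDYN was called higher while above background on 1 of 12 arrays.

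**Figure D2:**
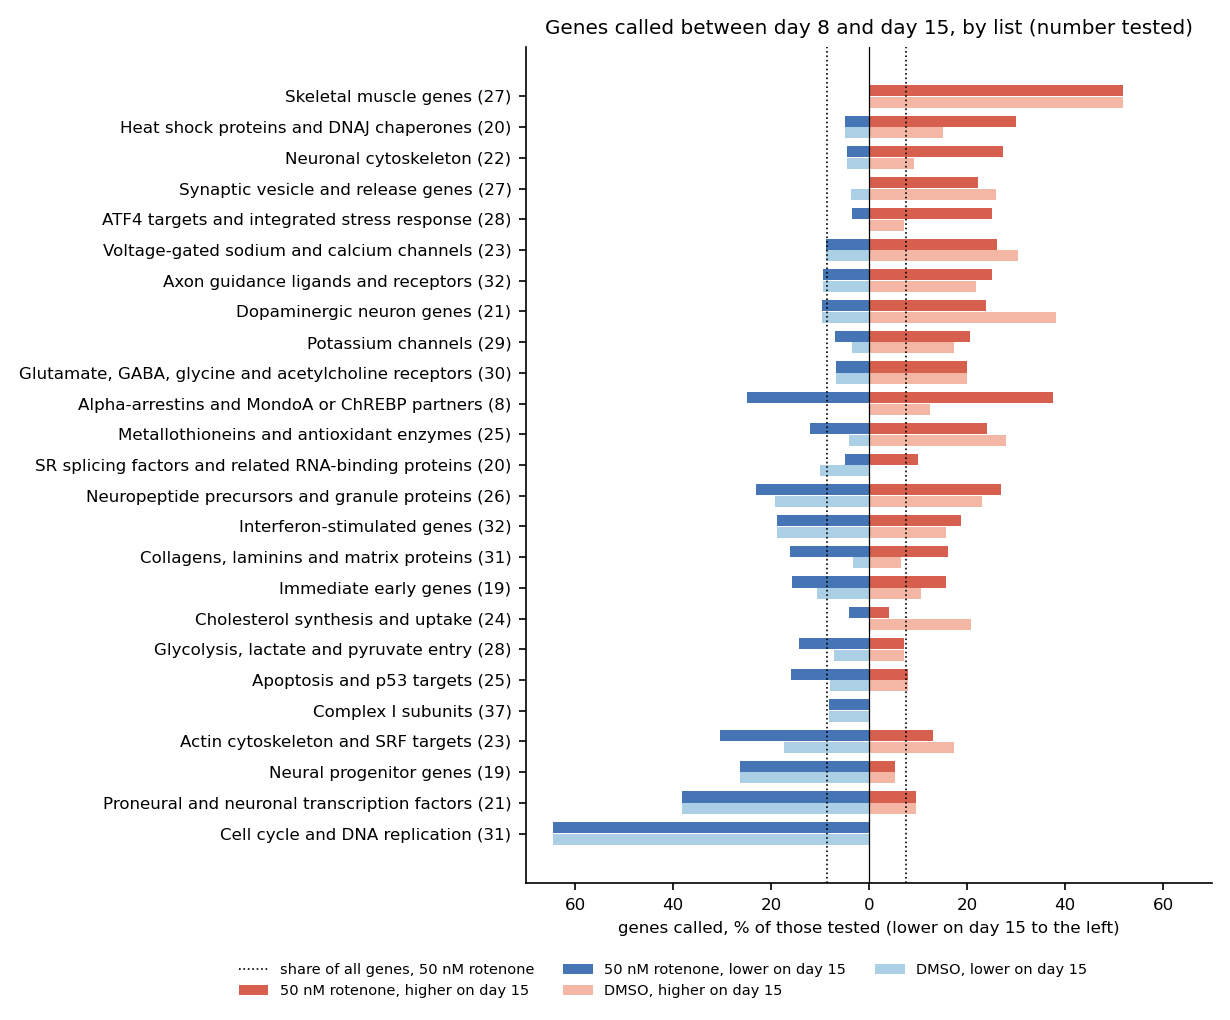
Share of the tested genes of each list that was called higher (right of 0) or lower (left of 0) on day 15 than on day 8, in percent, with the number tested in brackets. Bars to the right are red and bars to the left blue, dark bars are 50 nM rotenone and pale bars DMSO, and dotted lines are the shares over all genes in 50 nM rotenone (7.49% higher, 8.58% lower). Cell cycle genes extend furthest to the left and skeletal muscle genes furthest to the right in both treatments.

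Genes of the integrated stress response were higher more often than lower. Of 28 ATF4 targets, 7 were higher and 1 lower on day 15 (25% and 3.57%, beside 7.49% and 8.58% of all genes), with a median of 0.31. In DMSO 2 were higher and none was lower (beside 5.96% and 6.26% of all genes), with a median of 0.14. CHAC1, which degrades glutathione, rose by 1.39 ± 0.08 (median 7.96 to 9.40), with 0.58 ± 0.11 in DMSO. CEBPB, a partner of ATF4, rose by 1.33 ± 0.08, less than its rise of 1.82 ± 0.11 in DMSO. The difference of the CEBPB courses did not pass the test. PHGDH, the entry enzyme of serine synthesis, rose by 1.13, and SESN2, a stress-induced regulator of mTORC1, by 0.76. GDF15, a cytokine secreted under mitochondrial stress, fell by 1.08 ± 0.17 from 9.13 to 9.83 (median 9.54) to 7.79 to 8.93 (median 8.44), while the DMSO wells changed by -0.46 ± 0.25 (adjusted p = 0.204).

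Of 37 subunits of complex I, the target of rotenone, none was higher and 3 were lower, NDUFB5 (-0.89 ± 0.07), NDUFA6 (-0.68 ± 0.10) and NDUFA7 (-0.67), a share of 8.11% beside 8.58% of all genes. In DMSO, 3 were lower and none was higher. Of 28 tested genes of glycolysis, 2 rose, the phosphofructokinase PFKP (1.09 ± 0.09) and the hexokinase HK1 (0.74 ± 0.07), and 4 fell, among them the glucose transporter SLC2A1 (-0.89 ± 0.06) and the monocarboxylate transporter SLC16A1 (-0.82 ± 0.13). These shares of 7.14% and 14.3% stood beside 7.49% and 8.58% of all genes, and in DMSO 2 rose and 2 fell. Of 24 cholesterol genes in 50 nM rotenone, 1 was higher (MVD, 0.74 ± 0.15) and 1 lower (DHCR7, -0.65 ± 0.05), with a median of 0.0043, which turned negative with both scalings to the 75th percentile. In DMSO, 5 were higher and none lower, with a median of 0.35.

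Of 25 metallothionein and antioxidant genes, 6 rose (24%, beside 7.49% of all genes) and 3 fell (12%, beside 8.58%). The 6 that rose were metallothioneins, which bind zinc and copper. MT1E rose by 1.27 ± 0.10 (median 6.70 to 8.04) and MT1G by 1.18 ± 0.14 (5.78 to 6.89), and in DMSO they rose by 1.27 ± 0.14 and 1.21 ± 0.20. Metallothionein copies are nearly identical, so that their probes may not separate them. HMOX1, heme oxygenase 1, ranged from 9.44 to 10.55 (median 10.05) on day 8 and from 7.99 to 8.97 (median 8.41) on day 15, a change of -1.55 ± 0.15 (adjusted p = 4.47e-07), with -0.80 ± 0.22 in DMSO. NQO1, called lower, was above background on none of the day 15 arrays.

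Of 20 heat shock genes, 6 rose (30%, beside 7.49% of all genes) and 1 fell (5%, beside 8.58%), against 3 and 1 in DMSO. The rises were led by the small heat shock proteins CRYAB (1.17 ± 0.24) and HSPB8 (1.02 ± 0.33). HSPB8 was above background on 1 of 6 day 8 arrays. Of 19 tested immediate early genes, 3 rose and 3 fell (15.8% each), against 2 and 2 in DMSO. EGR1 rose by 1.46 ± 0.11 and FOS, above background on 1 of 6 day 8 arrays, by 1.84 ± 0.13, whereas ARC, a regulator of synaptic strength, fell by 1.55 ± 0.15 and BTG2 by 1.23 ± 0.06. Of 25 genes of apoptosis and p53, 2 rose and 4 fell (8% and 16%, beside 7.49% and 8.58% of all genes). With 75th percentile scaling of the median signal 2 rose and 2 fell, as in DMSO, and with the processed signal 4 rose and 3 fell. The survival factor BCL2 changed by -0.88 ± 0.14 in 50 nM rotenone and by -0.25 ± 0.19 in DMSO.

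Of 23 tested genes of the actin cytoskeleton and SRF targets, 3 rose (13.0%) and 7 fell (30.4%), against 4 and 4 in DMSO. Over all genes 7.49% rose and 8.58% fell in 50 nM rotenone. TNC, the matrix glycoprotein tenascin C, ranged from 9.31 to 10.04 (median 9.66) on day 8 and from 5.82 to 6.66 (median 6.25) on day 15, a change of -3.40 ± 0.21 (adjusted p = 1.91e-09), with -2.27 ± 0.30 in DMSO. ACTA2, smooth muscle actin, changed by -1.91 ± 0.19 and was above background on 1 of 6 day 15 arrays. LCP1, the actin bundler plastin 2, rose by 1.76 ± 0.10 (median 5.58 to 7.31) and CNN1, calponin 1, by 1.61 ± 0.10. The list's median was -0.24 and turned to 0.05 with the processed signal and to 0.02 with 75th percentile scaling.

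Of 31 matrix genes, 5 rose and 5 fell (16.1% each, beside 7.49% and 8.58% of all genes), against 2 and 1 in DMSO. This even split depended on scaling, as 12 rose and 5 fell with the processed signal and 8 and 3 with 75th percentile scaling, and the median of -0.00669 turned to 0.25 and 0.15. LAMA2, a laminin chain of muscle and nerve, rose by 1.09 ± 0.18 and COL6A2 by 0.89 ± 0.15, while THBS2 changed by -1.21 ± 0.14. COL3A1 and FN1, counted as called, were above background on no array of 50 nM rotenone. TNXB, also counted as lower, turned to 0.0670 when its brightest probe was used in place of the mean of its probes.

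Many of the tested genes of skeletal muscle, a list chosen after values were seen, were higher on day 15. Of 27 tested, 14 were higher on day 15 and none was lower (7.49% and 8.58% of all genes), with a median of 0.85 against -0.02 for all genes. Without day 15, 24 h, replicate 1, 16 were higher and none lower, with a median of 1.19. In DMSO 14 were higher and none lower, with a median of 1.25. MYH8, the perinatal myosin heavy chain, ranged from 4.08 to 4.98 (median 4.24) on day 8 and from 5.76 to 8.92 (median 8.63) on day 15, a change of 3.80 ± 0.37 (adjusted p = 3.3e-07) and of 4.22 without that array. MYF6, a myogenic regulatory factor, ranged from 2.44 to 4.48 on day 8 and from 4.91 to 7.67 on day 15, a change of 3.70 ± 0.45 and of 4.25 without it. Both were above background on 2 or fewer of the day 8 arrays.

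The embryonic myosin MYH3 rose from a median of 11.89 to 13.52 (1.41 ± 0.38) and the intermediate filament DES from 9.78 to 11.75 (1.69 ± 0.32) in 50 nM rotenone. Of the 27 genes, 16 were well above background on all 6 day 8 arrays and 4 on none. The myogenic factors MYOD1 (-0.02 ± 0.29) and MYOG (0.13 ± 0.12) did not pass the test. Day 15, 24 h, replicate 1 lay a median of 1.82 log2 units below the other 5 day 15 arrays over the 27 genes, with MYH3 at 10.79, DES at 9.61 and TNNT3 at 6.85, but its TMOD1 signal was 9.08, within the 8.91 to 9.12 of the day 15 arrays. ACTA1, skeletal muscle actin, ranged from 11.36 to 12.61 (median 11.76) on day 8 and from 8.72, on the array that stood apart, to 11.88 (median 11.51) on day 15, and its change of -0.70 ± 0.39 did not pass the test (adjusted p = 0.164). In DMSO, ACTA1 stood at 8.97, 10.45 and 9.46 on day 8 and at 10.69, 10.61 and 11.32 on day 15, a change of 1.25 ± 0.55 that did not pass the test either (adjusted p = 0.113). On day 8 it was called higher in 50 nM rotenone than in DMSO, by 2.22 ± 0.47 (adjusted p = 0.00639).

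**Figure D3:**
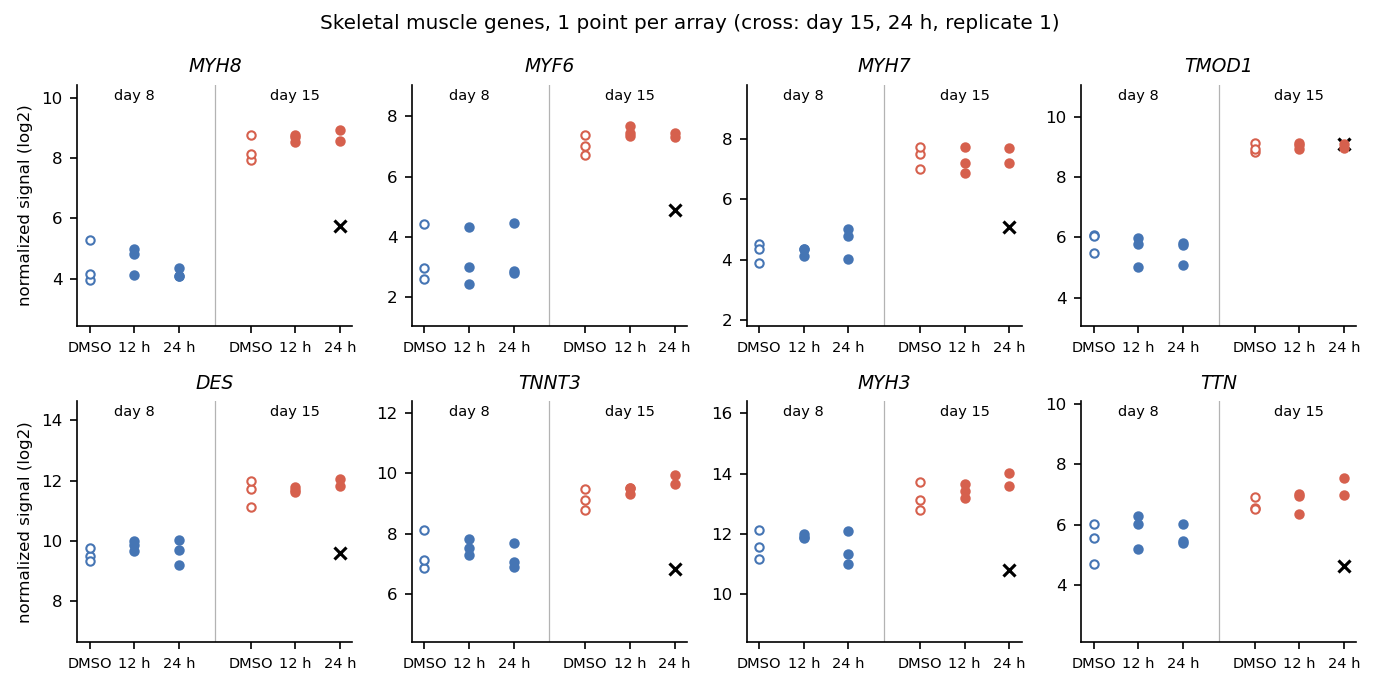
Normalized log2 signal (vertical axis) of 8 skeletal muscle genes in the DMSO, 12 h and 24 h groups of day 8 (blue) and day 15 (red), 1 point per array, with DMSO as open points. The black cross is day 15, 24 h, replicate 1, which lies below all other day 15 arrays for 7 of the genes and among them for TMOD1.

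Interferon-stimulated genes split, again in a list chosen after the values were seen. Of 32 tested, 6 were lower and 6 higher on day 15 (18.75% each, beside 8.58% and 7.49% of all genes), with a median of 0.11. The lower genes were IFITM1, IFITM2 (-3.36), IFITM3 (-3.47), IFI44L (-3.77), IFI44 (-2.49) and the regulator IRF7 (-0.70). The higher genes included the ubiquitin-like modifier ISG15 (1.13), IFI6 (1.35) and B2M, the light chain of class I molecules (0.64). Apart from IRF7, which changed by -0.39 without a call, the genes named here that fell were called lower in DMSO as well, where the list held 5 rises and 6 falls.

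The DMSO wells, which share no array with the rotenone wells, mostly moved the same way. Between day 8 and day 15, 2610 genes were called in DMSO (12.2% of those tested, 5.96% higher and 6.26% lower). Of the 3430 genes called in 50 nM rotenone, 3314 (96.6%) had the same sign in DMSO, against 74.7% of all genes, and 1849 (53.9%) were called there in the same direction, which is 70.8% of the DMSO calls. One gene was called in the opposite direction. With 3 DMSO wells per day against 6 of rotenone, the median standard error was 0.17 in DMSO and 0.12 in 50 nM rotenone, so that a call in rotenone alone does not show a different course.

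**Figure D4:**
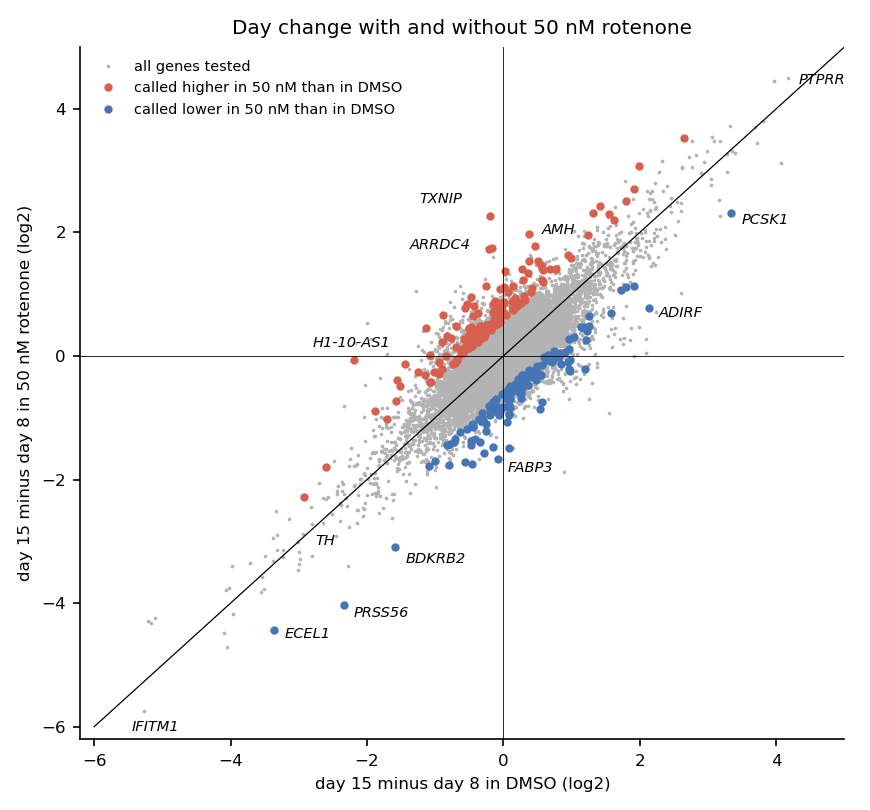
Change from day 8 to day 15 (log2) in DMSO on the horizontal axis and in 50 nM rotenone on the vertical axis, 1 point per tested gene. Red and blue points are the 274 genes whose changes differed between the treatments by the test of the difference, 152 higher (red) and 122 lower (blue) in rotenone, and the diagonal line marks equal change.

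The difference between the 2 courses was tested directly, with no DMSO arrays labelled by exposure time. It was called for 274 genes (1.28% of those tested), of which 152 moved higher (0.712%) and 122 lower (0.572%) in 50 nM rotenone than in DMSO, with a median standard error of 0.21. With the processed signal, 176 of 435 called genes were higher. Of the 3430 genes of the rotenone course, 145 were among the 274. For 114 of the 152 and 94 of the 122, the rotenone wells already differed from DMSO on day 8 by the same test. The gap to DMSO was smaller on day 15 than on day 8 for 146 of the 152 and 120 of the 122, and it was under 0.5 log2 units on day 15 for 148 and 121. Both counts use the same arrays as the difference itself and are given as a description.

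Over the 152 genes the median change was 0.52 in rotenone and -0.26 in DMSO, and the median gap to DMSO was -0.69 on day 8 and 0.05 on day 15. Over the 122 genes these medians were -0.59, 0.19, 0.72 and -0.04. Across all genes, 423 (1.98%) were called between 50 nM rotenone and DMSO on day 8. By limma, 0 were called on day 15, where the smallest adjusted p was 0.457. On that day 697 of the 21344 tested genes had an unadjusted limma p under 0.05. That share is below the 0.05 expected by chance. ComBat correction in place of the slide factor also gave 0 on day 15. The largest day 15 gaps among the 274 were those of NR3C2, the mineralocorticoid receptor (1.32 ± 0.27), and LINC00353 (-0.73 ± 0.23), neither of which passed the test on day 15.

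TXNIP, an alpha-arrestin that limits glucose uptake, had the largest called log2 difference between the courses. Its signal ranged from 9.68 to 10.07 (median 9.96) over the 6 day 8 arrays and from 11.88 to 12.41 (median 12.16) on day 15, while the DMSO wells stood at 12.61, 12.38 and 12.15 on day 8 and at 11.99, 12.52 and 12.02 on day 15. The rotenone change was 2.27 ± 0.10, the DMSO change -0.20 ± 0.14, and the difference 2.46 ± 0.17 (adjusted p = 1.17e-06). The day 15 rotenone arrays lay within the range of the DMSO arrays of both days, apart from 11.88.

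ARRDC4, a related alpha-arrestin, was likewise below DMSO on day 8. It ranged from 5.35 to 6.25 (median 5.96) on day 8 and from 7.37 to 7.86 (median 7.68) on day 15 in rotenone, and stood at 7.71, 7.90 and 7.74 and then at 7.28, 7.79 and 7.65 in DMSO. The difference was 1.94 ± 0.18 (adjusted p = 3.29e-05). MondoA and ChREBP are the factors that couple TXNIP transcription to glucose. Of the 8 tested alpha-arrestins and partners of these factors, 3 rose (37.5%) and 2 fell (25%) in the rotenone course, beside 7.49% and 8.58% of all genes. In DMSO 1 rose, and TXNIP and ARRDC4 were the 2 with a called difference. ARRDC3 (-0.72 ± 0.15) and MLXIP, which encodes MondoA (-0.65 ± 0.07), were the 2 that fell, and MLXIPL, which encodes ChREBP, rose by 1.20 ± 0.16 in rotenone and by 1.26 ± 0.22 in DMSO.

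The promoters of TXNIP, ARRDC4 and CHAC1 are shown because their course differed from DMSO and because the motifs of MondoA (CACGTG, the E box within the carbohydrate response element) and of ATF4 (TGATGNAA) are known. The windows are chr1:145996580-145996829 on the minus strand, chr15:97960453-97960702 on the plus strand and chr15:40953221-40953470 on the plus strand (RefSeq, GRCh38.p14, the 250 bases before the start, 5' to 3' along the gene), with both of these motifs and CCAAT, on either strand, in capitals.
TXNIP: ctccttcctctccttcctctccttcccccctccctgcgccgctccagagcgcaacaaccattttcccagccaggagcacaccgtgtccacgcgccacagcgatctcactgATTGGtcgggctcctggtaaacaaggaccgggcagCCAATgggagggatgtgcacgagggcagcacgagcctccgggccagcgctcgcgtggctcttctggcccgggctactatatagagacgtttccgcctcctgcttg
ARRDC4: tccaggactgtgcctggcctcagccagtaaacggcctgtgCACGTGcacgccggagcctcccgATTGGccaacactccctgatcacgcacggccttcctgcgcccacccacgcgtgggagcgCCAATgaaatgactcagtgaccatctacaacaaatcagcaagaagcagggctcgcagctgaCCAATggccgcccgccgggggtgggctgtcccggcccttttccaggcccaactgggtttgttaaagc
CHAC1: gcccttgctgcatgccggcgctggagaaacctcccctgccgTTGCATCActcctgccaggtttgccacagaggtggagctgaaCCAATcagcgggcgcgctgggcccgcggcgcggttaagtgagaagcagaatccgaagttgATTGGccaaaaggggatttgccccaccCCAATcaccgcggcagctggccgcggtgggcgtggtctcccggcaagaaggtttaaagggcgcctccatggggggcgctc
CACGTG stands once in the ARRDC4 window, and these exact letters are not in the TXNIP window. Only exact copies were searched, so inexact copies of the E box were not counted. Their absence from the TXNIP window therefore does not show that a MondoA site is lacking there. TGATGNAA stands once in that of CHAC1, and CCAAT stands 2 times in that of TXNIP and 3 times in each of the others. CACGTG was held by 2 of the 8 alpha-arrestin and partner promoters (25%) and by 7.66% of all 16205, and TGATGNAA by 5 of 22 ATF4 target promoters (22.7%) and by 2.31% of all. Of the 152 genes higher than in DMSO, 120 had a promoter, of which 6.67% held CACGTG and 35.8% held CCAAT, beside 7.66% and 34.2% of all.

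H1-10-AS1, a noncoding transcript antisense to a linker histone gene, differed without a change in rotenone. It ranged from 6.8 to 7.40 on day 8 and from 6.57 to 7.28 on day 15 in rotenone (-0.06 ± 0.08), and fell from 8.58, 9.13 and 9.15 to 6.46, 6.88 and 6.97 in DMSO, with a difference of 2.12 ± 0.13 (adjusted p = 5.89e-07). The RNA helicase DDX17 rose by 0.95 ± 0.07 in rotenone against -0.47 ± 0.10 in DMSO. The noncoding PSMG3-AS1 (difference 1.13 ± 0.12), the F-box protein FBXO9 (1.03 ± 0.11), the hormone AMH (1.60 ± 0.18) and the sperm microtubule protein SPMIP6 (1.92 ± 0.22) complete the 8 higher genes with the smallest p. The gaps of these last 5 genes to DMSO ran from -1.89 to -1.07 on day 8 and from -0.04 to 0.10 on day 15.

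Of the 28 ATF4 targets, 3 moved higher in rotenone than in DMSO and none lower, beside 0.712% and 0.572% of all genes. CHAC1 stood at 7.60 to 8.29 on day 8 and at 9.04 to 9.52 on day 15 in rotenone, and at 8.70, 8.87 and 8.96 and then 9.48, 9.47 and 9.33 in DMSO, a difference of 0.81 ± 0.14 (adjusted p = 0.00589). PHGDH differed by 0.99 ± 0.14 and SESN2 by 0.63 ± 0.13. All 3 were below DMSO on day 8, with gaps of -0.89, -0.96 and -0.64. GDF15, by contrast, was above DMSO on day 8 by 0.93 ± 0.21 (adjusted p = 0.01), and the difference of its courses, -0.62 ± 0.30, did not pass the test.

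BDKRB2, the bradykinin B2 receptor, was among the 8 genes with the smallest p that moved lower. It ranged from 9.82 to 10.16 (median 9.97) on day 8 and from 6.68 to 7.15 (median 6.86) on day 15 in rotenone, and fell from 8.24, 8.08 and 8.33 to 6.40, 6.78 and 6.71 in DMSO. The changes were -3.09 ± 0.09 and -1.59 ± 0.13, with a difference of -1.5 ± 0.16 (adjusted p = 0.000211). The day 8 rotenone arrays all lay above the DMSO arrays, and on day 15 the ranges overlapped.

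ADIRF, a regulator of adipogenesis, rose in both, by 0.77 ± 0.09 in rotenone and by 2.13 ± 0.13 in DMSO. NKD2, an inhibitor of Wnt signaling, fell by 0.74 ± 0.10 in rotenone while DMSO stood at 0.57 ± 0.14, and CAMK2N1, an inhibitor of CaM kinase II, fell by 1.09 ± 0.06 while DMSO stood at -0.26 ± 0.08. C11orf96 (difference -1.06 ± 0.11), LINC02525 (-0.84 ± 0.11), LRRC36 (-0.88 ± 0.11) and MESP1, a transcription factor of mesoderm (-0.78 ± 0.10), complete the 8. Of the largest changes described above, PRSS56 (-1.68 ± 0.25), ECEL1 (-1.08 ± 0.23) and BRINP3 (0.88 ± 0.20) differed from DMSO, as did PCSK1 (-1.03 ± 0.24), VGF, a granule peptide precursor (-0.84 ± 0.19), DUSP1, a phosphatase of MAP kinases (-0.59 ± 0.11), COL5A2 (0.65 ± 0.14) and ISG15 (-0.79 ± 0.11).

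**Figure D5:**
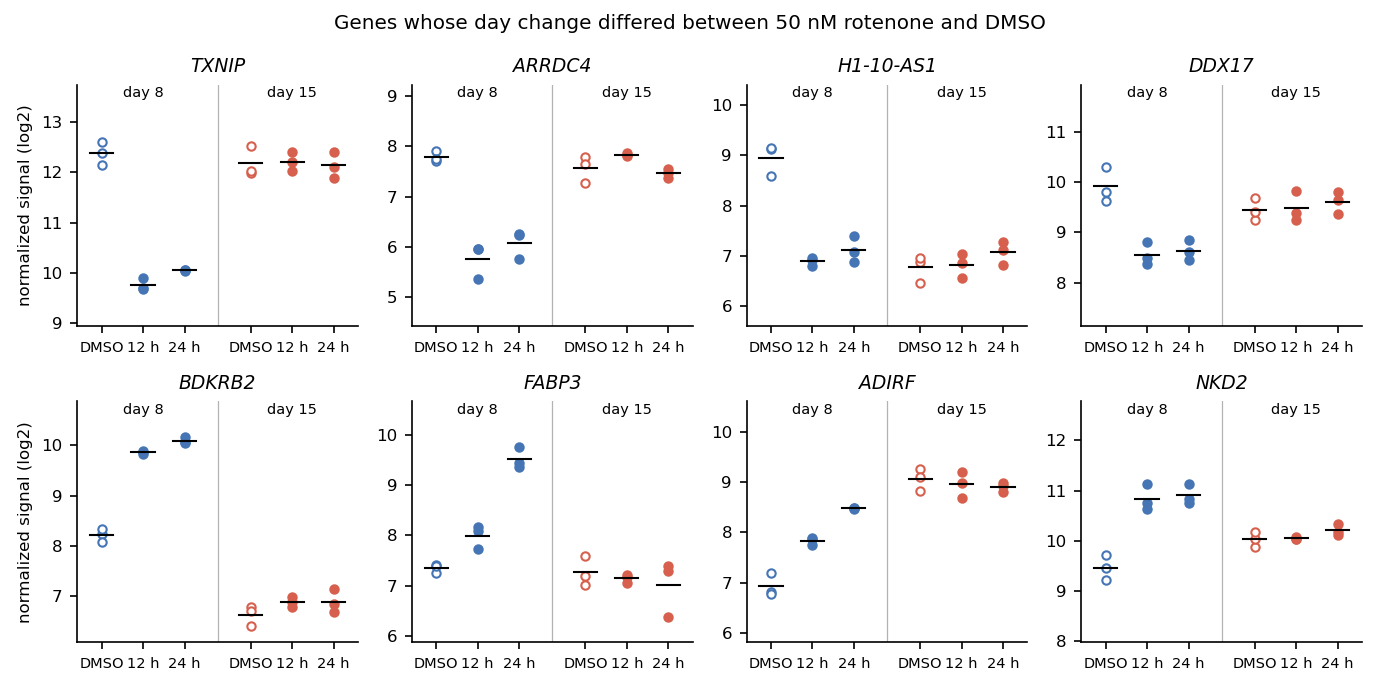
Normalized log2 signal (vertical axis) of 8 genes with a called difference between the 50 nM rotenone and DMSO courses, by group (DMSO, 12 h and 24 h of rotenone) on day 8 (blue) and day 15 (red), with 1 point per array and black lines at group means. For all 8 genes the arrays of rotenone and DMSO are separate on day 8 and overlap on day 15.

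The length of exposure was compared within the rotenone wells. With rotenone added on day 7 and harvest right after exposure, length of exposure and time of harvest cannot be told apart on day 8. After 12 h of exposure 3237 genes changed between the days and after 24 h 3408, on arrays that are not shared, with 2138 called in the same direction in both (66.0% and 62.7%) and 0 in opposite directions. The difference of the 2 courses was called for 3 genes (0.0141% of those tested), 1 higher (0.00469%) and 2 lower (0.00937%) after 24 h, all at an adjusted p of 0.0406.

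FABP3, a fatty acid binding protein of heart and neurons, stood at 7.72, 8.09 and 8.17 after 12 h and at 9.36, 9.76 and 9.43 after 24 h on day 8, and at 7.05, 7.22 and 7.17 and at 6.37, 7.39 and 7.29 on day 15, a difference of -1.65 ± 0.26. The day 8 DMSO wells stood at 7.42, 7.24 and 7.38, below all 6 rotenone arrays. ACAT2, an acetyl-CoA acetyltransferase that opens sterol synthesis, stood at 11.98, 11.91 and 12.30 after 12 h and at 12.88, 13.05 and 12.97 after 24 h on day 8 and at 12.21 to 12.58 on day 15, a difference of -1.01 ± 0.14. CHST8, a sulfotransferase of hormone glycans, stood at 12.55, 12.24 and 12.23 after 12 h and at 11.49, 11.42 and 11.61 after 24 h on day 8, and at 12.71 to 13.09 on day 15, a difference of 0.95 ± 0.14. In all 3 genes the exposures were apart on day 8 and overlapped on day 15. Of the other genes with the smallest p, LY6H (0.58 ± 0.09, adjusted p = 0.0406) stayed under the fold change of 1.5, and RTEL1, a DNA helicase (0.72 ± 0.13), and FDPS, the farnesyl diphosphate synthase of sterol synthesis (-0.56 ± 0.09), had adjusted p of 0.089 and 0.069. The 3 calls were lost in several alternatives given at the end.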

How the data were processed

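RNA of 24 wells was hybridized to single-color Agilent arrays, of which 12 were 50 nM rotenone. The authors deposited, per the file headers, 1 scanner file per array with spot intensity (median signal and background), read with Agilent Feature Extraction 11.5.1.1 (12.0.0.7 on slide 2), and a table of normalized log2 values of 21733 probes made in R 3.5 per the submitters' notes. Groups came from the titles. Here the median intensity was background corrected (normexp, offset 0) and quantile normalized as in the study's methods. Control spots, flagged spots (77 values) and spots that exceeded the negative controls (1.1 times their 95th percentile) on fewer than 3 arrays were left out, probes were named by the accession in the files, and probes of a gene were averaged, which gave 21344 genes. Genes with several probes that disagree depend on this rule.

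All groups were fitted together in limma 3.58.1 (R 4.3.3) with slide as a block (14 residual degrees of freedom). The replicate number is the slide, and slide 1, a repeated slide scanned on another day, needed batch correction. Deviations from group means correlated by 0.171 to 0.773 between arrays of 1 slide (84 pairs) and by -0.639 to 0.367 between slides. Arrays of a slide thus varied together. As replicate number and slide are the same, a pairing of wells cannot be told apart from a slide effect. Differences were called at a Benjamini-Hochberg adjusted p under 0.05 and a fold change over 1.5.

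Named genes were the 10 largest rises and falls among called genes with no overlap between days and detection on the brighter day, the 2 largest called members of each list in each direction, the 8 genes with the smallest p in each direction of the difference from DMSO, the 3 in each direction between exposures, and 12 genes that earlier results had named. Some genes that this rule selects are not reported here. Further list members were named after their values were seen. The comparison, its members and its lists were chosen with earlier results of these data known, and the interferon, muscle and RNA processing lists were chosen after values were seen. Alternatives covered signal, offset, scaling, batch correction, filter, probe choice, the authors' deposited log2 values, the arrays fitted and each array left out. Scripts were tested on simulated data. Figures used Python 3.11.15 and matplotlib 3.10.9.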

Additional observations from a re-analysis of the deposited data

Results flagged for a closer look

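Among sets of 6 arrays of 50 nM rotenone on 1 day, 14 of 238 held an array far from the other 5. For independent sets of like arrays, chance gives about 1 in 20, or 11.9. These sets came from genes chosen for their changes, and each pooled both exposure times and all slides. The count therefore cannot be weighed against that number. On day 15, 24 h, replicate 1 such signals on the log2 scale were those of ACTA1 (8.72), CRYAB (6.48), FABP3 (6.37), HES1 (3.04), MFAP4 (5.49), MYF6 (4.91) and MYH8 (5.76), all lower than on the other arrays of that day. The remaining single arrays were KRT19 (12.94), NOTCH1 (7.07) and SLC6A3 (9.41) on day 8, 24 h, replicate 2, CAMK2N1 (12.33) and MYT1L (7.26) on day 8, 24 h, replicate 1, CHRNA3 (5.49) on day 15, 12 h, replicate 3, and PRSS56 (10.84) on day 8, 12 h, replicate 1.

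The change from day 8 to day 15 differed between 50 nM rotenone and DMSO, by limma's test of the difference, for the following named genes. It was higher in rotenone, as a log2 difference, for AMH (1.60), ARRDC4 (1.94), BRINP3 (0.88), CHAC1 (0.81), COL5A2 (0.65), DDX17 (1.42), DDX5 (0.63), EWSR1 (0.73), FBXO9 (1.03), H1-10-AS1 (2.12), PHGDH (0.99), PSMG3-AS1 (1.13), SESN2 (0.63), SFPQ (1.06), SPMIP6 (1.92), SRSF2 (0.64), SRSF3 (0.77) and TXNIP (2.46). It was lower in rotenone for ADIRF (-1.36), BDKRB2 (-1.5), C11orf96 (-1.06), CAMK2N1 (-0.83), DUSP1 (-0.59), ECEL1 (-1.08), FABP3 (-1.59), ISG15 (-0.79), LINC02525 (-0.84), LRRC36 (-0.88), MESP1 (-0.78), NKD2 (-1.31), PCSK1 (-1.03), PRSS56 (-1.68) and VGF (-0.84). Between 24 h and 12 h of exposure the change differed for ACAT2 (-1.01), CHST8 (0.95) and FABP3 (-1.65).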

How the results depend on the processing

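The count of genes changed between the days in 50 nM rotenone, 3430, was 5512 with the scanner's processed signal (75th percentile scaling) and 1793 with a normexp offset of 50, and lay between 3071 and 4137 in the other settings and between 3326 and 3587 when 1 array was left out. For the difference from DMSO (274), the count was 435 with the processed signal, 59 with no replicate block and no batch correction and 55 on slides 2 and 3 alone, which hold fewer arrays. It ranged from 167 to 322 when 1 array was left out, with 167 without DMSO day 15 replicate 2, 173 without replicate 3 and 179 without DMSO day 8 replicate 3. With ComBat in place of the slide block it was 276.

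The 3 calls between exposures became 11 with the processed signal, with 75th percentile scaling and with ComBat and no replicate block, 27 with an offset of 50, 13 with a filter on probes well above background and 6 with the brightest probe. They were 0 with no block and no batch correction, 0 when only the arrays compared were fitted and 0 on slides 2 and 3. Leaving out 1 array gave 0 to 41, with 0 for 9 of 12 arrays and 41 without day 8, 12 h, replicate 3. The DMSO course (2610) gave 3521 with the processed signal (2381 of them higher), 1480 with an offset of 50, 1661 when only its own arrays were fitted and 2343 to 2516 when 1 array was left out. The day 8 gap to DMSO (423) gave 691 with the processed signal, 218 with an offset of 50, 276 with no block and no batch correction and 392 to 485 when 1 array was left out. The day 15 gap gave 0 to 1, with 1 without DMSO day 15 replicate 1. The causes were not tested.

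Of 119 named results, 96 kept their direction and side of the threshold in every alternative. ADIRF, LINC02525, LRRC36 and MESP1 lost their difference on slides 2 and 3, and TNXB turned to 0.0670 with its brightest probe. The 3 calls between exposures were lost most often, in 13 of 23 alternatives for FABP3 and CHST8 and in 12 for ACAT2. These genes were not dim. The other losses included dim or small changes, such as HES1, HSPB8 and DNAJC3. Precision is limited by 3 wells per group and by signal over background for dim genes.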

Other observations

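Splicing factors and related RNA-binding proteins, a list chosen after values were seen, differed between the courses more than within the rotenone course. Of 20 tested, 2 rose and 1 fell in 50 nM rotenone (10% and 5%, beside 7.49% and 8.58% of all genes). In DMSO none rose and 2 fell, beside 5.96% and 6.26% of all genes. The difference was called higher in rotenone for 7 and lower for none, beside 0.712% and 0.572% of all genes, with a median of 0.26. SFPQ, a splicing factor of paraspeckles, stood at 10.50 to 11.66 on day 8 and at 11.55 to 11.94 on day 15 in rotenone, and at 11.98, 12.46 and 11.91 and then at 11.46, 11.85 and 11.92 in DMSO, a difference of 1.06 ± 0.15 (adjusted p = 0.00152 by limma). DDX17 (1.42), SRSF3 (0.77), EWSR1 (0.73), SRSF2 (0.64) and DDX5 (0.63) were also called. These 6 stood below DMSO on day 8, with gaps from -1.32 to -0.55.

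The scan of the library labelled DMSO, day 15, replicate 1 does not name its treatment, so its group rests on its label. Without it the difference from DMSO was called for 257 genes.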
